A study of Mus musculus with 9 samples.

Results

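The genes described here are 10 components of transforming growth factor beta (TGF-beta) signaling in mouse: the ligands Tgfb1, Tgfb2 and Tgfb3, the activin subunit gene Inhba, the latency protein gene Ltbp1, the receptors Tgfbr1, Tgfbr2 and Tgfbr3, and the intracellular factors Smad3 and Smad7. They were listed by name as a pathway, with earlier results of these data known, and all 10 were found among the 18755 genes of the count table and among the 13966 genes tested. The tumors came from 4T1 cells, a metastatic murine breast cancer line first taken from a BALB/c mammary tumor, of which 1000000 were placed in the mammary fat pad of female BALB/c mice aged 6 to 10 weeks. Dosing by oral gavage, once a day, started on day 15 and lasted 5 days. The analyzed tumors came from 3 mice given the carrier alone (0.5% Natrosol, a hydroxyethylcellulose, called vehicle) and 6 given BI 853520 at 50 mg/kg (called BI). BI 853520 inhibits focal adhesion kinase (FAK), the tyrosine kinase that relays integrin signals. RNA sequencing of pieces of whole frozen tumors gave 1 library per tumor. The study kept only tumors whose RNA quality was sufficient, so the 3 and 6 are tumors that passed this selection. All 9 tumors share 1 cell line grown in immunocompetent hosts, so each library holds RNA of cancer cells and of host stroma and immune cells. In such bulk samples, fewer cells of a type and less RNA per cell cannot be told apart.

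TGF-beta is secreted as a dimer that stays bound to its own propeptide, and this latent complex is tethered to the extracellular matrix through latent TGF-beta binding proteins such as the product of Ltbp1. Integrins and proteases release the active ligand, which binds the type II receptor (Tgfbr2), which in turn recruits and phosphorylates the type I receptor (Tgfbr1). The activated type I receptor phosphorylates SMAD2 and SMAD3, which enter the nucleus with SMAD4 and regulate transcription, while SMAD7 is induced by the same signal and blocks the receptor. In mammary tumors the pathway is known for restraining growth of epithelial cells, for promoting epithelial-mesenchymal transition and for suppressing T cells. The counts measure mRNA and not the phosphorylation or release steps of this pathway.

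Total counts per tumor ranged from 21727879 to 33850245 in the vehicle group and from 16931607 to 22349873 in the BI group. A gene was called when it reached an adjusted p of 0.05 or less. All adjusted p values below are from edgeR (quasi-likelihood test, Benjamini-Hochberg adjustment over the 13966 genes) unless another tool is named. Under this rule 2040 genes were higher and 1973 lower in BI tumors. Marker lists of other cell types differed between the groups. Of 10 macrophage markers 9 rose, and their summed level, in CPM per kilobase of gene length (RPKM), was 1050 to 1360 in vehicle and 2260 to 2690 in BI tumors. Of 10 T and NK cell markers 8 rose (44.3 to 46.1 RPKM against 81.6 to 112), of 12 fibroblast markers 4 rose (311 to 376 against 390 to 454), of 10 endothelial markers 4 rose (63.6 to 74.9 against 72.9 to 107) and of 6 mast cell markers 5 rose (11.8 to 27.3 against 27.8 to 290). Of 7 neutrophil markers 4 fell (1190 to 1550 RPKM against 404 to 791), and of 8 epithelial markers, which 4T1 cells are known to carry in part, 2 fell (612 to 755 against 473 to 607). Most of the epithelial sum came from Krt18 and Krt8 (means of 333 and 234 RPKM), the same 2 that fell. The log2 fold change was positive for 4 of the 8 epithelial markers, none of them called. Of 4 platelet markers 1 rose (59.2 to 94.6 RPKM against 60.3 to 105) and of 6 adipocyte markers 0 were called (54.5 to 87.8 against 80.5 to 379). The platelet marker that rose was near the floor, at most 0.0458 CPM in vehicle and 0.898 CPM in BI tumors. Most of the platelet sum came from another gene, which was not called. No marker of any list was at 0 in all tumors, and the part of these cell types in the results below was not tested.

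Tgfb1 rose in BI tumors, while Ltbp1 and Inhba fell, and the other 7 genes were not called. The changes were small. The largest of the 10, that of Inhba, was 0.42 in size on the log2 scale, and 23.8% of all genes tested had a change at least that large. The count of 3 called among 10 stands beside 28.7% of all genes called in either direction, a share near that background. The single gene called higher stands beside 14.6% of all genes, and the 2 called lower beside 14.1%. No member passed the cutoffs used in the study, an unadjusted p up to 0.05 together with a change of at least 1.5-fold, which 13.2% of all genes passed. At the unadjusted p alone, 5 of the 10 passed, beside 5687 of the 13966 genes tested. The median log2 fold change was 0.10 over the 10 genes and -0.0037 over all genes tested. The log2 fold change was positive for 6 of the 10, beside 6916 of the 13966 genes.

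**Figure D1:**
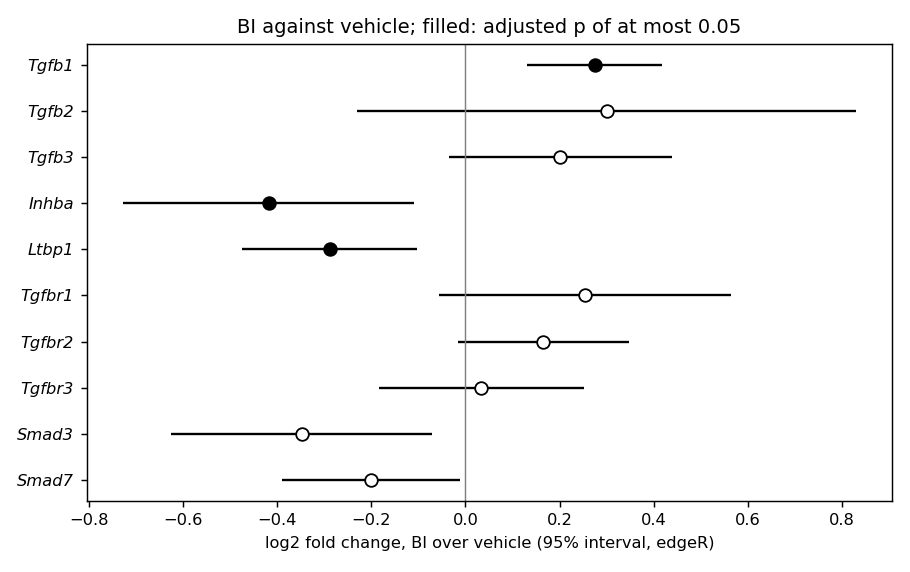
Log2 fold change of each of the 10 genes in BI against vehicle tumors, with the 95% confidence interval of the edgeR fit as a bar and filled points for the called genes. The interval of Tgfb1 lies above 0 from 0.13 to 0.42 and those of Inhba and Ltbp1 lie below 0, while those of Tgfb2, Tgfb3 and the 3 receptors cross it. Those of Smad3 (-0.62 to -0.07) and Smad7 (-0.39 to -0.01) also lie below 0, although neither gene was called.

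Tgfb1 encodes the most abundant TGF-beta isoform of these tumors, a regulator of immune cells, fibroblasts and epithelium alike. In counts per 1000000 reads (CPM) after library scaling, the vehicle tumors held 167, 157 and 146 and the BI tumors ranged from 169 to 201 with a median of 192. All 6 BI tumors therefore stood above all 3 vehicle tumors, although the lowest BI tumor and the highest vehicle tumor nearly met. The mean went from 157 ± 10.3 CPM (SD, n = 3) to 189 ± 10.9 CPM (SD, n = 6), a fold change of 1.21 with a 95% confidence interval from 1.1 to 1.34. The log2 fold change was 0.27 with a standard error of 0.0654 and an adjusted p of 0.00904 (edgeR, Benjamini-Hochberg). An exact two-sided permutation test over the 84 divisions of the tumors gave p = 0.0119 for this gene alone, which is the smallest value that 3 against 6 tumors can give. Without vehicle tumor 3, which had the lowest level, the adjusted p was 0.0577 and the call was lost, and it held in the other 8 fits that each left out 1 tumor. Tgfb1 (Entrez 21803) occupies chr7:26472021-26490096 of mm9, plus strand.

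Tgfb3, the isoform known from palate fusion and wound repair, was the other abundant isoform. Its vehicle tumors held 135, 184 and 160 CPM and its BI tumors 155 to 212 with a median of 187. The groups overlapped, with 3 BI tumors above the vehicle range. Its log2 change was 0.20 with a standard error of 0.108, an interval from -0.04 to 0.44 and an adjusted p of 0.185 (edgeR). The interval holds 0 and also the change measured for Tgfb1.

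Tgfb2, the isoform best known from development of the heart and eye, was low, with 42 to 94 reads per tumor. The vehicle tumors held 2.29, 1.88 and 2.77 CPM, and the BI tumors 2.08 to 4.06 with a median of 2.53. Both groups overlapped widely, and 2 BI tumors, numbers 1 and 6, stood above the rest. The log2 fold change of 0.30 had a standard error of 0.243 and an interval from -0.23 to 0.83 (adjusted p = 0.382, edgeR). It was 0.03 without BI tumors 1 and 6, the 2 highest for this gene, which were left out after the data were seen. The means were 2.31 ± 0.446 CPM (SD, n = 3) in vehicle and 2.87 ± 0.787 CPM (SD, n = 6) in BI tumors, and these spreads overlapped. Tgfb2 (Entrez 21808) occupies chr1:188447065-188529871 and Tgfb3 (Entrez 21809) chr12:87397694-87419991, both on the minus strand.

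Inhba encodes the beta A subunit that forms activin A, a ligand that signals through the same SMAD2 and SMAD3 from its own receptors. Its vehicle tumors held 11.5, 17.9 and 16.1 CPM and its BI tumors 9.91 to 13.4 with a median of 10.8. Of the 6 BI tumors 4 lay below all vehicle tumors, and the remaining 2, numbers 1 and 6, lay above the lowest vehicle tumor. The mean fell from 15.2 ± 3.33 (SD, n = 3) to 11.4 ± 1.41 CPM (SD, n = 6), or 0.749 times the vehicle level. On the log2 scale the change was -0.42 with a standard error of 0.142, an interval from -0.73 to -0.11 and an adjusted p of 0.0447 (edgeR), and the exact two-sided permutation p was 0.0357. The call rested on few tumors. It was lost without vehicle tumor 2 (log2 fold change -0.28, adjusted p = 0.211), without vehicle tumor 3 (0.152) and without BI tumor 2, 3, 4 or 5 (0.0723, 0.073, 0.0813 and 0.0779), so it held in 3 of the 9 fits, and it was lost with scaling by library size only (0.0524). Inhba (Entrez 16323) occupies chr13:16103684-16119044, plus strand.

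**Figure D2:**
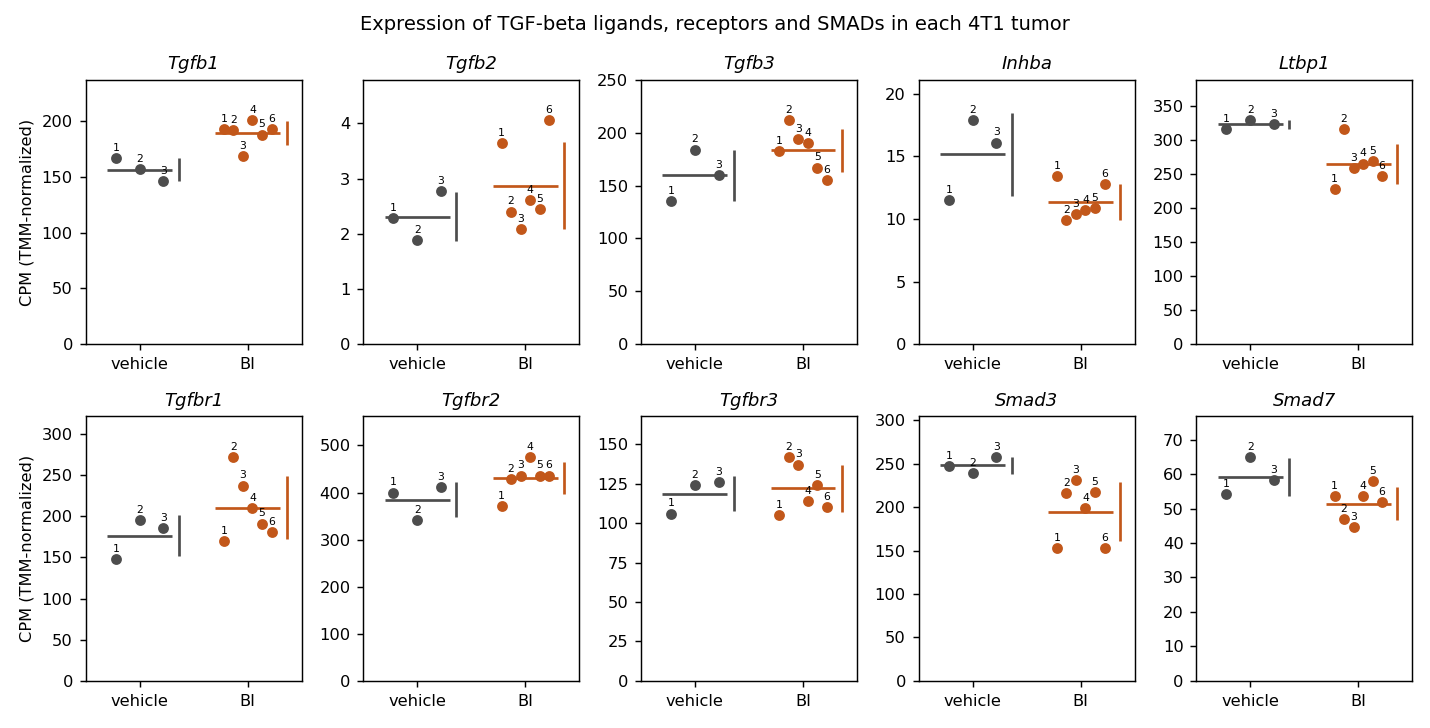
Level of each of the 10 genes in CPM, 1 panel per gene with its own axis starting at 0, in 3 vehicle and 6 BI tumors. Points are tumors, and the line and bar are the group mean and SD. Tgfb1 (169 to 201 CPM in BI) and Smad3 (153 to 231 CPM in BI) are the 2 genes whose groups do not overlap.

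Ltbp1 encodes the binding protein that anchors latent TGF-beta in the matrix and presents it for release by integrins. Its 3 vehicle tumors were close together at 316, 329 and 323 CPM, and the BI tumors ranged from 228 to 316 with a median of 262. Of the BI tumors 5 lay below every vehicle tumor, and BI tumor 2 reached the lowest of them. The mean fell from 322 ± 6.49 (SD, n = 3) to 264 ± 29.4 CPM (SD, n = 6), or 0.819 times the vehicle level. Ltbp1 changed by -0.29 on the log2 scale with a standard error of 0.0851, an interval from -0.47 to -0.10 and an adjusted p of 0.0251 (edgeR), and the exact two-sided permutation p was 0.0357. The call was lost without any 1 of the vehicle tumors (adjusted p = 0.0607, 0.0786 and 0.0766 without numbers 1, 2 and 3) and held without any 1 BI tumor. Without both BI tumors 1 and 6, an alternative chosen after the data were seen, the log2 fold change was -0.22 with an adjusted p of 0.0593. Ltbp1 (Entrez 268977) occupies chr17:75404908-75791852, plus strand.

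The promoters of the 3 called genes are shown because SMAD3 is known to bind the short element CAGAC, so that TGF-beta pathway genes can themselves be targets of the pathway. Each run is the 250 bases before a RefSeq start, written 5′ to 3′ on the gene's strand, taken from the RefSeq table of assembly GRCm38.p6 and placed on mm9 by exact match. Capitals mark CAGAC on either strand, which reads GTCTG where it lies on the opposite strand. The reference genome is not that of the BALB/c mouse, and the reads give no information on these bases. Ltbp1 has 2 listed starts, and counts per gene do not tell the transcripts from them apart. The windows lie at chr7:26471771-26472020 for Tgfb1, chr13:16103434-16103683 for Inhba, chr17:75404619-75404868 for the upstream start of Ltbp1 and chr17:75577871-75578120 for its downstream start, all on the plus strand.
Tgfb1: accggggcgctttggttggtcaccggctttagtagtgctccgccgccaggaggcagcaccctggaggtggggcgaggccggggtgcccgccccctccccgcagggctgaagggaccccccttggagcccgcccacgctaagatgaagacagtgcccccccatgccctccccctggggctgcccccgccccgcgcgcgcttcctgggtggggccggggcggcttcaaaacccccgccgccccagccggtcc
Inhba: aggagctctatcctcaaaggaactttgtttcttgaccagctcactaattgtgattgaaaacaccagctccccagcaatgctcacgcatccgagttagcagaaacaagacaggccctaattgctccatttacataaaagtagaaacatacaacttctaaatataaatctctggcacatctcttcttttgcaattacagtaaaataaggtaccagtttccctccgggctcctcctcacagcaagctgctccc
Ltbp1, upstream start: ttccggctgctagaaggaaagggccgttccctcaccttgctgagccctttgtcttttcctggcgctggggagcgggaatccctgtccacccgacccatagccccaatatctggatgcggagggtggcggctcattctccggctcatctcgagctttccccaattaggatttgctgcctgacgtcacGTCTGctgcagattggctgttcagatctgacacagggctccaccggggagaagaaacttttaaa
Ltbp1, downstream start: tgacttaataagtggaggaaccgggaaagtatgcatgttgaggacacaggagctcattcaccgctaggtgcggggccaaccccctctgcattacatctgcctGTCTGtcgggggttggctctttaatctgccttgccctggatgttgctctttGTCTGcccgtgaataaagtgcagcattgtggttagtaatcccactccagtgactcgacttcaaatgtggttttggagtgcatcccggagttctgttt

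The Tgfb1 window was 75.2% G and C and that of Inhba 43.2%, against a median of 52.4% over all 32851 promoter windows of the table. Neither of these 2 windows held CAGAC. The upstream Ltbp1 window held 1 match and the downstream window 2, all on the opposite strand. Of all windows of this length 42.2% held at least 1 match, so its presence does not set Ltbp1 apart. The AP-1 element TGANTCA (any base at N, both strands) was in 0 of the 9 windows found for 7 of the 10 genes and in 6.75% of all windows.

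The 3 receptor genes were not called by edgeR, and 0 of 3 reached 0.05 by unadjusted p. DESeq2 and limma-voom called 0 of 3 as well. Tgfbr2, the type II receptor that binds the ligand first, held 400, 342 and 411 CPM in vehicle and 371 to 476 in BI tumors, with a median of 436. Of the BI tumors 5 lay above the vehicle range and 1 within it. On the log2 scale the difference was 0.16 with a standard error of 0.0833, an interval from -0.02 to 0.35 and an adjusted p of 0.158 (edgeR).

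Tgfbr1, the type I receptor kinase that phosphorylates SMAD2 and SMAD3, held 148, 195 and 185 CPM in vehicle tumors and 170 to 272 in BI tumors, with a median of 200. The groups overlapped, and 3 BI tumors stood above the vehicle range. Its log2 fold change was 0.25 with a standard error of 0.142, an interval from -0.06 to 0.56 and an adjusted p of 0.2 (edgeR). Tgfbr3 encodes betaglycan, a co-receptor without kinase activity that presents TGF-beta to the type II receptor, and it was at 106, 124 and 126 CPM in vehicle and 105 to 142 in BI tumors. The BI tumors reached beyond the vehicle range on both sides. Its log2 fold change of 0.03 had an interval from -0.18 to 0.25 (adjusted p = 0.829, edgeR), and its sign turned without vehicle tumor 1 (-0.0436). As fold changes, the intervals of Tgfbr3 (0.88 to 1.19), Tgfbr2 (0.988 to 1.27) and Tgfbr1 (0.962 to 1.48) leave out a change of 1.5-fold in either direction. Tgfbr1 (Entrez 21812) occupies chr4:47366094-47427803 on the plus strand, and Tgfbr2 (Entrez 21813, chr9:115993415-116084383) and Tgfbr3 (Entrez 21814, chr5:107535589-107718648) lie on the minus strand.

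Smad3, the receptor-activated SMAD that carries the TGF-beta signal to DNA, separated the groups without being called. Its vehicle tumors were close together at 247, 239 and 258 CPM, and its BI tumors ranged from 153 to 231 with a median of 208. All 6 BI tumors lay below all 3 vehicle tumors, and BI tumors 1 and 6, both at 153 CPM, lay far below the other BI tumors. Mean levels were 248 ± 9.56 (SD, n = 3) and 195 ± 34.2 CPM (SD, n = 6). The log2 fold change was -0.35 with a standard error of 0.127, an interval from -0.62 to -0.07, an unadjusted p of 0.018 and an adjusted p of 0.0586 (edgeR), and the exact two-sided permutation p was 0.0595. Without BI tumors 1 and 6 the change was smaller, at -0.20, with an adjusted p of 0.0472 (edgeR). These are the 2 lowest tumors for Smad3 and were left out after the data were seen, so this fit is no separate test. Of the other alternatives, Smad3 was past the threshold without BI tumor 3 (0.0308), with DESeq2 (0.0329) and with scaling by library size only (0.0467). Its adjusted p was between 0.051 and 0.169 in the other 8 fits that left out 1 tumor. Smad3 (Entrez 17127) occupies chr9:63494574-63605801, minus strand.

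Smad7, the inhibitory SMAD that is itself induced by TGF-beta, held 54.1, 65.0 and 58.2 CPM in vehicle tumors and 44.6 to 57.9 in BI tumors, with a median of 52.7. Of the BI tumors 5 lay below the vehicle range and 1 within it. Its log2 difference was -0.20 with a standard error of 0.0864, an interval from -0.39 to -0.01 and an adjusted p of 0.102 (edgeR). No alternative brought it past the threshold, the lowest adjusted p being 0.0647. Smad7 (Entrez 17131) occupies chr18:75527183-75555589, plus strand. By group separation, Tgfb1 was the 1 gene wholly higher and Smad3 the 1 gene wholly lower in BI tumors, against 14.1% and 14.0% of all genes tested and 28.1% in either direction.

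The levels of the genes can be compared with each other per length, in RPKM. In vehicle tumors Tgfbr2 (80.2 RPKM) and Tgfb1 (74.8 ± 4.94, SD, n = 3) led, and their ranges overlapped. Smad3 (48.7 RPKM), Tgfb3 (47.2 RPKM) and Ltbp1 (39.6 RPKM) followed, and neighbours in this order were not separated beyond their spread. Tgfbr1 (31.1 RPKM), Tgfbr3 (19.7 RPKM), Smad7 (13.3 RPKM), Inhba (9.91 RPKM) and Tgfb2 (0.49 RPKM) came below. In BI tumors Tgfb1 (90.5 ± 5.21 RPKM, SD, n = 6) and Tgfbr2 (89.9 RPKM) again overlapped at the top. Tgfb3 (54.2 RPKM) was next, and Smad3 (38.3 RPKM), Tgfbr1 (37.1 RPKM) and Ltbp1 (32.4 RPKM) overlapped one after the other. Tgfbr3 (20.1 RPKM), Smad7 (11.6 RPKM), Inhba (7.43 RPKM) and Tgfb2 (0.608 RPKM) kept the lower places.

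**Figure D3:**
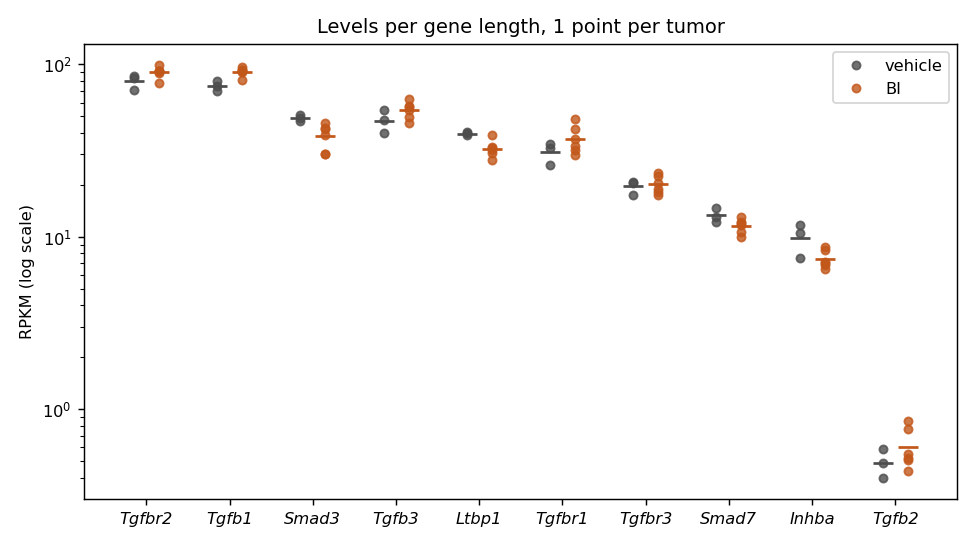
Level of the 10 genes per kilobase in RPKM on a log axis, ordered by the vehicle mean, with 1 point per tumor in 3 vehicle and 6 BI tumors. Tgfbr2 and Tgfb1 share the top, near 80.2 and 74.8 RPKM in vehicle, and Tgfb2 lies lowest at 0.49 RPKM.

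The mixture of the 3 isoforms hardly moved. Tgfb1 made up 61.2 ± 4.59% (SD, n = 3) of the summed isoform RPKM in vehicle and 62.3 ± 3.08% (SD, n = 6) in BI tumors. Tgfb3 made up 38.4 ± 4.61% and 37.3 ± 3.17%, and Tgfb2 0.403 ± 0.096% and 0.42 ± 0.123%. The differences in share were smaller than the SD in either group. The sum itself was 118 to 130 RPKM in vehicle and 138 to 155 RPKM in BI tumors, so the ranges did not meet. The level of Ltbp1 relative to this sum was 0.324 ± 0.013 (SD, n = 3) in vehicle and 0.223 ± 0.0211 (SD, n = 6) in BI tumors, with ranges of 0.311 to 0.337 and 0.19 to 0.251. The sum also holds Tgfb3, which was not called and had means of 47.2 RPKM in vehicle and 54.2 RPKM in BI tumors. The ratio of Ltbp1 to the sum thus joins the fall of Ltbp1 with the levels of all 3 isoforms described above and is no separate test. Smad7 relative to Smad3 was 0.251 to 0.312 in vehicle and 0.221 to 0.402 in BI tumors, and Tgfbr1 relative to Tgfbr2 was 0.392 ± 0.0856 and 0.413 ± 0.0717, so both ratios overlapped.

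The spread of Smad3 and Ltbp1 was wider among BI than among vehicle tumors. The coefficient of variation of Ltbp1 was 2.01% in vehicle and 11.1% in BI tumors, and that of Smad3 was 3.86% and 17.5%, with 3 and 6 tumors behind them. BI tumors 1 and 6 held the 2 lowest BI values of Ltbp1, Tgfbr1, Tgfbr3 and Smad3 and the 2 highest of Tgfb2 and Inhba. The same 2 tumors had the lowest summed level of the list of latency and activation genes among BI tumors. Much of that sum is 1 gene, Thbs1, with a mean of 258 RPKM. BI tumors 1 and 6 also had the highest summed level of the mast cell markers (290 RPKM in BI tumor 1 and 214 RPKM in BI tumor 6), and BI tumor 6 had the highest of the adipocyte markers (379 RPKM). The part of those cells in the levels was not tested. BI tumors 1 and 6 were left out together only after the data were seen, and they are BI extremes for Inhba, Smad3 and Ltbp1. Without both tumors, 1 of the 10 genes was called higher and 2 were called lower, as with them. The lower genes were then Inhba (log2 fold change -0.53, adjusted p = 0.0208, edgeR) and Smad3 in place of Ltbp1. Tgfb1 held (0.26, adjusted p = 0.0268, edgeR).

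**Figure D4:**
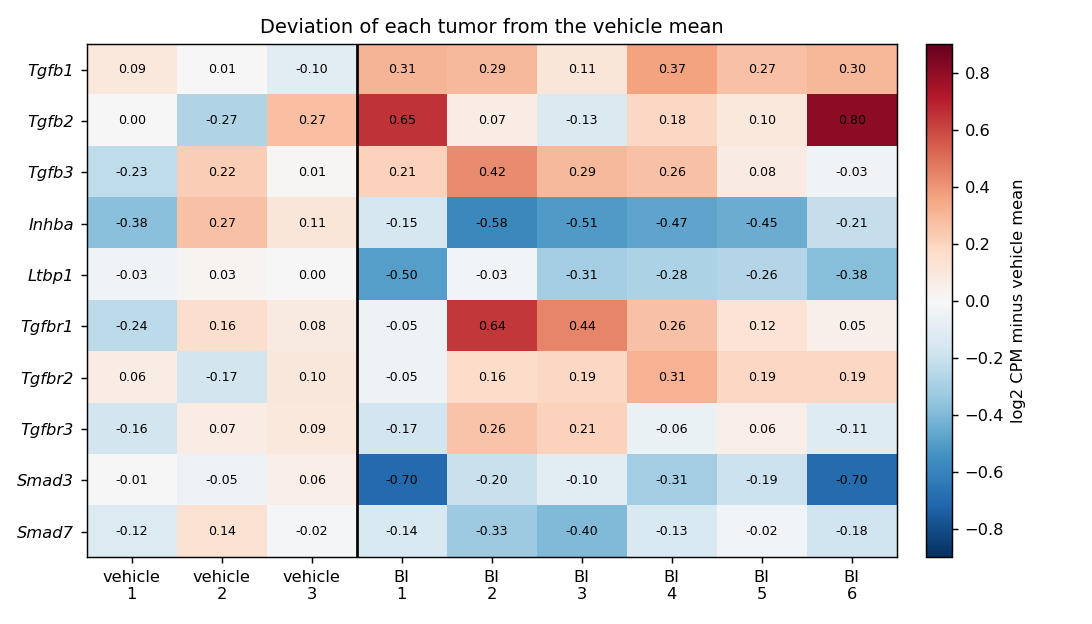
Log2 CPM of each tumor minus the mean of the 3 vehicle tumors, for the 10 genes in rows and the 9 tumors in columns, with color from lower to higher. BI tumors 1 and 6 are low for Smad3 (153 CPM in both) and high for Tgfb2.

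Around these 10 genes, 100 further genes of the pathway in 8 lists were tested. Of them 15 rose and 16 fell, which is 31.0% called against the 28.7% of all genes, with a median log2 fold change of 0.13. The counts per list below stand beside 14.6% of all genes called higher and 14.1% called lower. Among 12 genes of latency and activation 2 rose and 1 fell, with a median of 0.24. Nrros, which holds latent TGF-beta on the surface of myeloid cells, rose from 68.0 ± 8.62 (SD, n = 3) to 110 ± 5.8 CPM (SD, n = 6), a log2 difference of 0.70 (standard error 0.0803, adjusted p = 0.000113). Its groups did not overlap, at 58.0 to 73.4 CPM in vehicle and 102 to 116 CPM in BI tumors. Macrophage markers rose beside it, and their part in the change of Nrros was not tested. Emilin1, a matrix glycoprotein known to limit processing of the TGF-beta precursor, rose from 17.9 ± 2.11 to 33.4 ± 4.19 CPM (0.91, adjusted p = 0.000213). Itgav, the integrin alpha v chain of the receptors that free latent TGF-beta, fell from 439 ± 39.1 to 319 ± 26.7 CPM (-0.46, standard error 0.0818, adjusted p = 0.00167), with no overlap. The calls of all 3 held without any 1 tumor. Thbs1, a matrix activator of latent TGF-beta and the most abundant of the list, was at 1690 ± 289 and 1400 ± 405 CPM (adjusted p = 0.384).

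Among 15 ligand traps and extracellular modulators 1 rose and 2 fell. Htra1 and Htra3, 2 secreted serine proteases of 1 family that bind TGF-beta family ligands, were both called, in opposite directions. Htra1 fell from 504 ± 46.2 (SD, n = 3) to 309 ± 52.6 CPM (SD, n = 6), a log2 difference of -0.71 (standard error 0.13, adjusted p = 0.00208). Htra3 rose from 19.9 ± 2.09 to 31.9 ± 5.33 CPM (0.68, standard error 0.138, adjusted p = 0.0039). Neither gene's groups overlapped, and both calls held without any 1 tumor. Fstl3, which binds and blocks activins, fell from 29.1 ± 2.67 to 23.5 ± 2.11 CPM (-0.31, adjusted p = 0.0222), a call lost without vehicle tumor 2 (0.101) or 3 (0.078). Among 9 further family ligands 3 rose. Bmp7, a bone morphogenetic protein (BMP), went from 2.01 ± 0.496 to 4.1 ± 1.15 CPM (1.01, adjusted p = 0.0148), a call lost without vehicle tumor 1 (0.0687). Inhbb, the beta B activin subunit, went from 35.4 ± 2.98 to 42.6 ± 3.91 CPM (0.27, adjusted p = 0.0407), a call that held only without BI tumor 3 or 5, with an adjusted p of up to 0.175 in the other fits that left out 1 tumor and of 0.0504 without a filter on low counts. Bmp5, under 2 CPM in every tumor, had an adjusted p of 0.0469 that rose as high as 0.148 in such fits and was at most 0.05 only without BI tumor 1 or 6, and the call was lost with limma-voom (log2 fold change 1.73, adjusted p = 0.184).

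Among 10 other receptors 1 rose and 1 fell. Acvrl1, the type I receptor ALK1 of endothelial cells, rose from 27.2 ± 1.91 (SD, n = 3) to 36.1 ± 3.11 CPM (SD, n = 6), a log2 difference of 0.41 (standard error 0.0849, adjusted p = 0.00411), no overlap between groups and a call that held without any 1 tumor. Its endothelial co-receptor Eng was at 229 ± 18.8 and 251 ± 13.5 CPM (0.13, adjusted p = 0.157). Endothelial markers rose in part beside Acvrl1, and their part in its change was not tested. Bmpr1a, a type I BMP receptor, fell from 257 ± 16.6 to 210 ± 20.2 CPM (-0.29, adjusted p = 0.018), a call lost without vehicle tumor 3 (0.0942) and without BI tumors 1 and 6 (0.0548).

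Among 5 other SMAD genes 0 rose and 2 fell. Smad4, the partner that all activated SMADs share, fell from 131 ± 5.21 (SD, n = 3) to 113 ± 4.41 CPM (SD, n = 6), a log2 difference of -0.22 (standard error 0.0526, adjusted p = 0.00986) and no overlap between groups. Without vehicle tumor 3 its adjusted p was 0.0501. Smad6, the inhibitory SMAD of the BMP branch, fell from 7.58 ± 1.56 to 5.22 ± 0.772 CPM (-0.53, adjusted p = 0.0288), a call lost without vehicle tumor 1 (0.163) or 2 (0.0565) and without BI tumors 1 and 6 (0.0606). Smad2, the other SMAD phosphorylated by Tgfbr1, was at 74.7 ± 4.43 and 74.4 ± 3.52 CPM (-0.01, adjusted p = 0.941). Among 18 regulators of SMADs 1 rose and 7 fell, beside 14.6% and 14.1% of all genes, with a median of -0.08. Tgif1, a nuclear corepressor of SMADs, fell from 123 ± 12.9 to 91.1 ± 5.81 CPM (-0.43, standard error 0.0734, adjusted p = 0.00126). Trim33, a nuclear ubiquitin ligase that acts on SMAD4, fell from 105 ± 4.18 to 86.4 ± 5.14 CPM (-0.29, standard error 0.0601, adjusted p = 0.00458). Both calls held without any 1 tumor. Smurf1, a ubiquitin ligase of SMADs and receptors, fell from 148 ± 8.11 to 127 ± 7.96 CPM (-0.23, adjusted p = 0.0181), a call lost without vehicle tumor 3 (0.0952) and without BI tumors 1 and 6 (0.0571). The other 4 that fell were Zfyve9, Strap, Nedd4l and Skil. Ldlrad4, a membrane inhibitor of SMAD activation, was the gene that rose (0.37, adjusted p = 0.0282), a call lost without any 1 vehicle tumor or BI tumor 1, with an adjusted p of up to 0.0968. Ski, the most abundant corepressor of the list, was at 416 ± 16.7 and 420 ± 10.6 CPM.

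**Figure D5:**
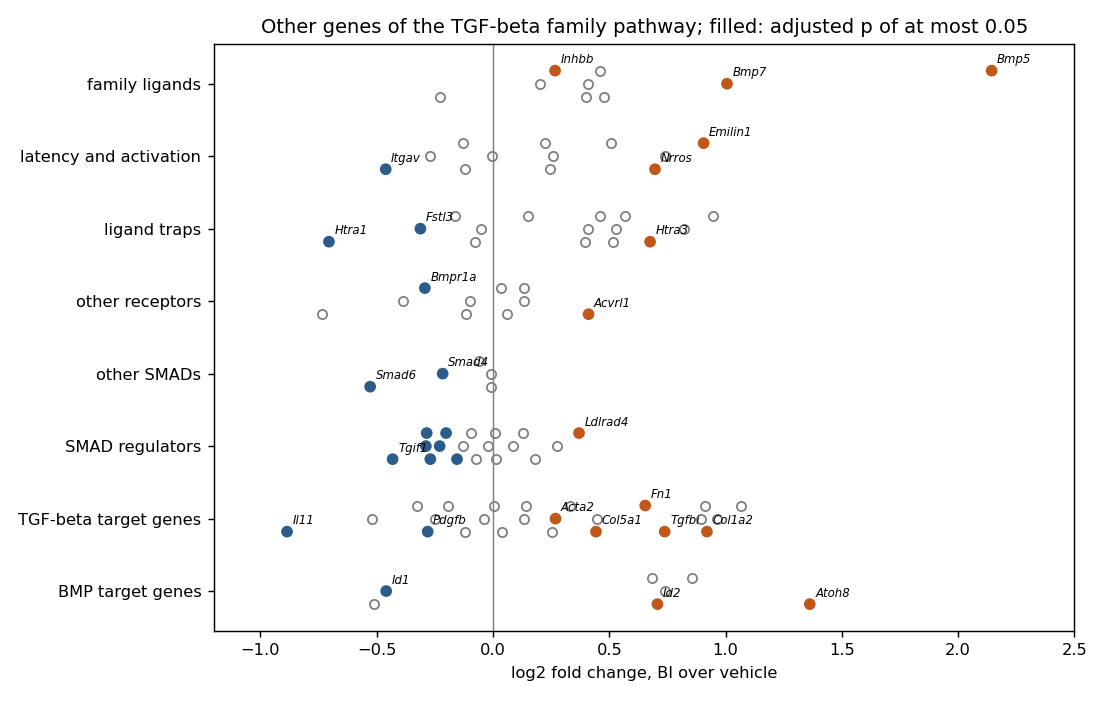
Log2 fold change in BI against vehicle tumors of the tested genes of the 8 further pathway lists, 1 row per list and 1 point per gene, with filled points for called genes, most of them named. Il11 (-0.89) lies to the left among TGF-beta target genes, while Fn1 (0.65) lies to the right.

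Of 24 tested genes known to be induced by TGF-beta, 5 rose, 2 fell and 17 were not called, with a median log2 fold change of 0.20. This is a share near the 28.7% of all genes called in either direction. Il11, a cytokine that TGF-beta induces in breast cancer cells and fibroblasts, fell from 16.6 ± 1.31 (SD, n = 3) to 8.98 ± 1.88 CPM (SD, n = 6), a log2 difference of -0.89 (standard error 0.153, adjusted p = 0.00141), with no overlap between groups. Fn1, the matrix protein fibronectin, rose from 8660 ± 1110 to 13600 ± 2170 CPM (0.65, standard error 0.14, adjusted p = 0.0049). Both calls held without any 1 tumor and without BI tumors 1 and 6, whereas the count of targets that rose went from 5 to 1 without those 2 tumors, leaving Fn1. Tgfbi, a matrix protein named for its induction by TGF-beta, went from 279 ± 57.8 to 466 ± 135 CPM (0.74, adjusted p = 0.0324), a call lost in 5 of the 9 fits that left out 1 tumor, those without vehicle tumor 2 or 3 or BI tumor 1, 4 or 6 (up to 0.124). Col5a1, a fibrillar collagen chain, was called at 0.44 (adjusted p = 0.0283), a call lost without vehicle tumor 1 (0.106) or 2 (0.12) or BI tumor 4 (0.0552). Pdgfb, a growth factor for pericytes, fell from 36.3 ± 2.3 to 29.9 ± 2.68 CPM (-0.28, adjusted p = 0.0254), a call lost without vehicle tumor 1 (0.0901) or 2 (0.0945) or BI tumor 5 (0.0505), and without BI tumors 1 and 6 (0.0519). The matrix genes of this list are also expressed by fibroblasts, whose markers rose in part.

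Among 7 tested genes known as BMP targets 2 rose and 1 fell. Id2 and Id1 encode closely related inhibitors of basic helix-loop-helix factors and moved apart. Id2 rose from 68.4 ± 2.51 (SD, n = 3) to 112 ± 15 CPM (SD, n = 6), a log2 difference of 0.71 (standard error 0.101, adjusted p = 0.000421), no overlap between groups and a call that held without any 1 tumor. Id1 fell from 60.2 ± 5.89 to 43.8 ± 7.84 CPM (-0.46, standard error 0.13, adjusted p = 0.0206), a call lost without vehicle tumor 1 (0.0799) or 2 (0.0768). Atoh8, under 1 CPM in every tumor, was called at an adjusted p of 0.0422 that rose to 0.146 without vehicle tumor 1 and held only without BI tumor 1 or 2 among the fits that left out 1 tumor. Without a filter on low counts its adjusted p was 0.0599.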

How the data were processed

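The authors counted uniquely aligned paired-end reads in the exons of RefSeq genes after STAR alignment to mm9, and deposited raw counts with gene lengths and no normalization. Kit strandedness is known, but whether counting used strand is not given in the sources used here. Symbols were looked up in RefSeq through the Entrez identifier (18700 of 18755 found), and positions from GENCODE M1 on mm9, where no exon of the 10 genes overlapped another gene. The 10 genes and all lists were chosen with earlier results of these data known.

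BI and vehicle tumors were compared with edgeR 4.0.16 in R 4.3.3 (TMM scaling, filterByExpr at 10 counts per library and 15 in total, quasi-likelihood F test, no covariates). CPM are TMM-scaled, log2 CPM used a prior count of 2, and RPKM used the deposited lengths. A floor of 3 counts applied, and no member was at it. In a simulation of this comparison (13874 genes, 200 of them altered), 60.9% were called at 1.5-fold, 86.8% at 2-fold and 98.4% at 4-fold, as were 8 unaltered genes. Alternatives were RLE scaling, library size only, other filters, DESeq2 1.42.0, limma-voom (limma 3.58.1), leaving out each tumor, and the cutoffs of the study.

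Named genes were all 10 members and, in each further pathway list, the most abundant gene by RPKM and up to 3 called genes with the smallest p in each direction. Smad2, Zfyve9, Strap, Nedd4l and Skil were named after their values were seen. Of 199 list entries, 2 had no gene in the counts, and 1 further gene of the TGF-beta target list is not reported here. The labels do not say whether tumors of a group came from separate experiments, so p values measure the spread between these tumors. Precision is limited by the counts of each gene, which for Tgfb2 were 42 to 94 per tumor.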

Additional observations from a re-analysis of the deposited data

Results flagged for a closer look

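Of 64 genes examined for a BI tumor far from the others, 2 had one, and chance alone flags about 1 in 20 groups. Fn1 in BI tumor 2 was at 17900 CPM, against 13400 CPM in the next highest BI tumor. Fabp4, an adipocyte marker, was at 210 CPM in BI tumor 6, against 102 CPM in the next highest. None of the 10 members had such a tumor.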

How the results depend on the processing

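Of 160 comparisons of a member's log2 fold change with an alternative, 141 kept their direction and side of the threshold, 12 lost a call, 4 gained one and 3 turned sign. Tgfbr3 turned to -0.0436 without vehicle tumor 1, to -0.0134 without BI tumor 2 and to -0.0023 without BI tumor 3, with a range of -0.0436 to 0.0795 over such fits, and Ski turned to -0.0171 without vehicle tumor 1, with a range up to 0.0406. The 2040 and 1973 genes called higher and lower became 1339 and 499 with the cutoffs of the study, where members called were 0 and 0. Leaving out 1 tumor gave 1332 to 2026 genes higher and 1172 to 1980 lower, with 0 to 1 members higher and 0 to 2 lower, and the lowest counts of all genes were without vehicle tumor 3. The cause was not tested. No paired analysis was possible because the tumors came from different mice, the labels number them in 1 run across both groups, and the numbers used here only name tumors in their order of listing. The test called 60.9% of genes simulated at 1.5-fold, and the changes seen in the members are smaller than 1.5-fold. The simulation altered far fewer genes than were called here, so the same adjusted p asked for a smaller unadjusted p. Its result was also not split by expression level. The 60.9% therefore does not tell how often changes of the members' size would be called or missed, which was not tested. Without BI tumors 1 and 6, chosen after the data were seen, the count of other receptors called lower was 0, of other SMADs lower 1, of SMAD regulators higher 0 and of TGF-beta target genes higher 1 and lower 1.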
